A study of Mus musculus with 30 samples.

Results

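The 31 genes described here encode the route by which pyruvate enters the mitochondrion and is oxidised in the tricarboxylic acid (TCA) cycle, together with the enzymes that link the cycle to aspartate, malate and glutamate. The rule that chose them uses gene names and no measured value, but the list was drawn up with earlier results of these data known. All 31 were among the 14616 genes tested of 57390 gene rows in all. They were measured by RNA sequencing of poly(A) RNA in 30 cultures of 3T3-L1, a clonal mouse fibroblast line that can be turned into adipocytes in culture. Every culture received a differentiation medium with fetal serum, 3-isobutyl-1-methylxanthine and insulin, controls included. Quizalofop-p-ethyl (QpE), an aryloxyphenoxypropionate herbicide, was added at 50 µM when that medium was refreshed. There were 5 control and 5 QpE cultures at each of 6 h, 24 h and 12 days, numbered as culture replicates 1 to 5 in each group, and what the controls received in place of QpE is not stated in the labels. The labels name a cell line, so all cultures share 1 genetic background, and nothing in them says that the replicates came from separate passages, so p-values measure the spread between these cultures only.

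Pyruvate made by glycolysis crosses the inner mitochondrial membrane through a carrier made of MPC1 and MPC2. The pyruvate dehydrogenase complex then turns it into acetyl-CoA, and pyruvate carboxylase turns it into oxaloacetate. Pyruvate dehydrogenase kinases switch the complex off by phosphorylation and its phosphatases switch it on again. In adipocytes citrate leaves the cycle as the source of acetyl-CoA for fatty acid synthesis, and pyruvate carboxylase refills the cycle.

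Promoters of the members were read because 29 of 31 point estimates lay above 0 at 12 days, although only 10 members passed the test. RefSeq start sites (GRCm38.p6) were found for 29 of the 31 members, all but Idh3a and Pdp1, and the 250 bases before each start were searched on both strands. GCGTG, a form of the core read by hypoxia-inducible factors, was present in 17 of the 29 members and in 30.9% of all 27025 genes with a promoter. ACGTG, the other form of that core, was present in 8 members and in 18.5% of all genes; its reverse complement overlaps it where the letters CACGTG occur. CCGGAAG, the core of GABP and other ETS factor sites, was present in 3 members, Idh3g, Mpc1 and Glud1, and in 7.83% of all genes. The oestrogen-related receptor element TCAAGGTCA was in no member and in 0.422% of all genes, the NRF1 element was in Sucla2 only among the members and in 4.23% of all genes, and the PPAR element was in no member and in 0.0407% of all genes. A match describes letters and does not show a binding site. The windows of 4 members that hold a match are shown, picked after their values were seen: Pdhb and Glud1 were called higher at 12 days, and Pdk1 and Pdk4 are the kinases described in most detail and were not called. Dlat, Dld and Idh3b, which were called, hold no match. Sequences run 5′ to 3′ on the gene's strand, with the matches found in them on either strand in capitals.
Pdk1 (chr2:71873124-71873183, plus strand, from 100 to 41 bases before the start): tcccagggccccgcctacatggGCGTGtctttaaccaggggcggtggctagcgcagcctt
Pdk4 (chr6:5496319-5496378, minus strand, from 100 to 41 bases before the start): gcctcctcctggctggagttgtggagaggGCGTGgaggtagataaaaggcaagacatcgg
Pdhb (chr14:8173183-8173242, minus strand, from 250 to 191 bases before the start): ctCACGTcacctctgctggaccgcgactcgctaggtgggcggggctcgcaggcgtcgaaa
Glud1 (chr14:34310477-34310536, plus strand, from 250 to 191 bases before the start): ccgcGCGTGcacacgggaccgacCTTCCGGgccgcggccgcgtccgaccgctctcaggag
The capitals mark GCGTG in Pdk1, Pdk4 and Glud1. In Pdhb they mark ACGTG read from the opposite strand, and the longer capitals in Glud1 mark the ETS core read from the opposite strand.

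Levels are given as FPKM, fragments corrected for the length of the transcript and the size of the library, summed over the transcripts of a gene. The libraries summed to between 413502 and 500489 FPKM. Their depth, estimated from the steps between low values, was between 9520000 and 17460000 fragments and is approximate. Adipocyte markers were present in all groups, with the sum of 10 markers between 291 and 729 FPKM at 6 h, between 348 and 995 FPKM at 24 h, and between 1849 and 10167 FPKM at 12 days. Of these 10 markers only Lep was near 0, listed at 0 in 22 libraries. Elovl3, a gene of brown fat, reached 24.4 FPKM in its highest culture with QpE at 12 days. Its mean there was 8.58 FPKM, beside 0.382 FPKM in controls at 12 days. The other brown or beige markers showed no such rise. At 12 days mean FPKM in controls and with QpE was 0.593 and 0.588 for Cidea and 0.463 and 0.306 for Dio2. For Prdm16 it was 0.00567 and 0.00597, and for Ucp1 0.00887 and 0. The sum of 8 fibroblast markers was 5241 to 6788 FPKM in controls at 12 days and 709 to 3924 FPKM with QpE. Markers of macrophages, endothelium and skeletal muscle each summed to at most 5.37 FPKM, and Ucp1, the defining brown adipocyte marker, was listed at 0 in 28 libraries. At 12 days the cultures of replicates 3 and 4 stood apart from replicates 1, 2 and 5 in both arms, with lower adipocyte markers, and QpE replicate 5 had the lowest fibroblast markers. Values at 12 days are therefore also given within these sets, which were picked from these same data and not from the labels.

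QpE at 6 h and at 24 h was compared with the control cultures of the same time to show whether the members differed early in the exposure. With limma and Benjamini-Hochberg adjustment at 0.05, 0 of 31 members were called higher and 0 lower at 6 h, where 0.00684% of all genes were called higher and 0% lower. At 24 h 0 members were called in either direction, and 0% of all genes were called in either direction. At an unadjusted p under 0.05, 3 members and 402 genes in all passed at 6 h, and 10 members and 1285 genes in all passed at 24 h. Differences are given on the log2(FPKM + 1) scale, which understates changes of low genes, as QpE minus control. The members' median difference was 0.00 at 6 h, with 16 of 31 above 0, beside a median of -0.01 over all genes. At 24 h their median was 0.13, with 27 of 31 above 0, beside a median of 0.01 over all genes. With TPM scaling the 24 h median of the members was 0.08, beside -0.03 over all genes. In that fit 4 members and 1425 of all 14616 genes passed at an unadjusted p under 0.05. Adipocyte markers at 24 h summed to 348 to 845 FPKM in controls and 598 to 995 FPKM with QpE, and their part in the members' values was not tested. The 24 h differences ranged from -0.30 for Pdk4 to 0.35 for Pdhb. None of these single differences passed the test.

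Among the genes of pyruvate entry, Pdha1, which encodes the alpha subunit of the dehydrogenase component, had 112, 113, 121, 118 and 129.6 FPKM in controls at 6 h and 122, 130.1, 125, 118 and 118 FPKM with QpE. At 24 h Pdha1 had 116, 114, 119.9, 117 and 116 FPKM in controls and 128, 129.8, 139, 158 and 124 FPKM with QpE. The 24 h groups did not overlap, as in 0.842% of all genes, yet the difference of 0.21 ± 0.07 (SE) had an adjusted p of 0.439 with limma. Mpc1, a subunit of the carrier, had 15.6, 15.1, 16.1, 13.7 and 15.5 FPKM in controls at 6 h and 26.99, 19.5, 16.7, 15.4 and 26.2 FPKM with QpE. All QpE cultures but replicate 4 were above every control, and replicates 1 and 5 were highest. The Mpc1 difference at 6 h was 0.41 ± 0.15 (limma adjusted p = 1.00). At 24 h Mpc1 had 33.6, 33.99, 24.7, 18.2 and 23.5 FPKM in controls and 34.6, 36.98, 29.7, 20.4 and 26.8 FPKM with QpE, groups that overlapped (difference 0.15 ± 0.20). Mpc2, its partner, had 67.4, 54.5, 69.8, 59.1 and 73.2 FPKM in controls at 24 h and 94.2, 104, 95.9, 79.6 and 42.4 FPKM with QpE. Replicate 5 with QpE was the lowest of all 10 and the other QpE cultures were the highest (difference 0.30 ± 0.22, limma adjusted p = 0.719).

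Pcx, encoding pyruvate carboxylase, had 119.6, 124, 99.01, 81.2 and 109.6 FPKM in controls at 24 h and 135, 135, 149.8, 122 and 116 FPKM with QpE. These groups overlapped, and the difference was 0.31 ± 0.12 (limma adjusted p = 0.505). Cs, encoding citrate synthase, which joins acetyl-CoA to oxaloacetate, had 79.5, 82.9, 80.6, 81.5 and 76.3 FPKM in controls at 24 h and 85.2, 89.02, 97.4, 87.8 and 80.6 FPKM with QpE (difference 0.13 ± 0.06, limma adjusted p = 0.537). Ogdh, encoding the first component of 2-oxoglutarate dehydrogenase, had 31.5, 34.2, 32.2, 29.9 and 29.8 FPKM in controls at 24 h and 35.1, 34.96, 40.5, 36.1 and 32.7 FPKM with QpE (difference 0.18 ± 0.06, limma adjusted p = 0.478). Both overlapped between groups. At 6 h the differences of Pcx, Cs, Ogdh and Mpc2 were 0.02, -0.02, 0.01 and 0.06.

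The kinases other than Pdk3 had at most 12.3 FPKM in any culture at 6 h or 24 h. Pdk4, the kinase that fasting and glucocorticoids raise, had 4.27, 4.45, 4.59, 6.48 and 7.33 FPKM in controls at 24 h and 2.99, 5.59, 4.40, 3.62 and 4.43 FPKM with QpE. Its groups overlapped, with a difference of -0.30 ± 0.17 (limma adjusted p = 0.648). Pdk1, the kinase that hypoxia raises, had 9.52, 9.99, 9.33, 10.1 and 10.3 FPKM in controls at 24 h and 10.3, 9.57, 8.94, 9.90 and 9.79 FPKM with QpE, a difference of -0.02 with a 95% interval of -0.14 to 0.10. At 6 h the difference was 0.13 ± 0.20 for Pdk4 and 0.11 ± 0.10 for Pdk1.

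**Figure D1:**
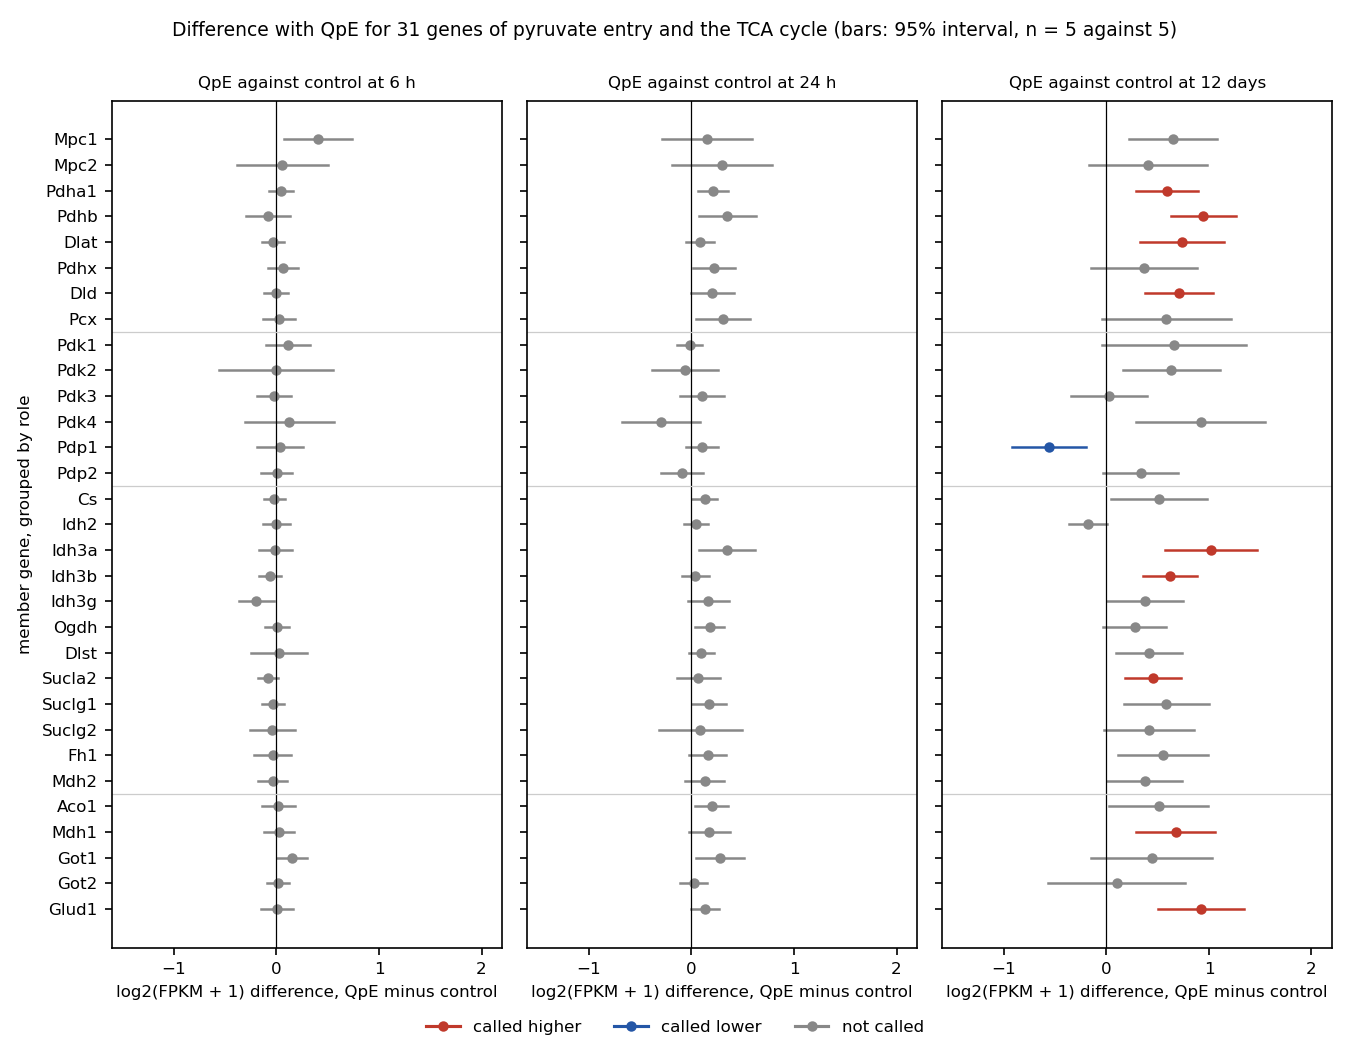
Each point is the log2(FPKM + 1) difference of QpE minus control for 1 gene (x axis) at 6 h, 24 h or 12 days, with its 95% interval, n = 5 cultures against 5; genes are on the y axis in order of role, and colours mark limma calls. No gene was called at 6 h or 24 h, and at 12 days 9 were called higher and only Pdp1 lower.

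At 12 days the members were compared between QpE and control cultures. Of 31 members, 9 rose and 1 fell (limma, Benjamini-Hochberg adjusted p under 0.05), beside 5.06% of all genes called higher and 7.16% called lower. The 9 were Idh3a, Pdhb, Glud1, Dlat, Dld, Mdh1, Idh3b, Pdha1 and Sucla2, and Pdp1 fell. In all, 29 of 31 members were above 0, with a median of 0.51 beside a median of -0.002 over all genes. The QpE cultures were all above the controls in 11 members, beside 6% of all genes, and all below them in Pdp1, beside 8.26%. Adipocyte markers summed to 4519 to 10167 FPKM with QpE and to 1849 to 7294 FPKM in controls, with fibroblast markers as given above, and the part of these in the members' differences was not tested. In bulk RNA, fewer cells of a type and less RNA per cell cannot be told apart.

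The genes of the pyruvate dehydrogenase complex gave 4 calls among the 8 genes of pyruvate entry. Pdhb, encoding the beta subunit of the dehydrogenase component, had 204, 211, 154, 129 and 181 FPKM in controls and 321, 296, 373, 337 and 352 FPKM with QpE. Every QpE culture exceeded the highest control. It rose by 0.95 ± 0.14 (SE, n = 5 against 5) on the log2 scale (limma adjusted p = 0.00965). Pdha1 had 216, 221, 154, 152 and 182 FPKM in controls and 285, 272, 252, 253 and 323 FPKM with QpE. Its groups did not overlap, and it rose by 0.59 ± 0.14 (limma adjusted p = 0.0232). Dlat, encoding the acetyltransferase core, had 53.8, 50.8, 36.7, 32.1 and 45.4 FPKM in controls and 76.2, 73.4, 61.2, 56.1 and 102 FPKM with QpE. QpE replicate 5 was the highest, no QpE culture was below a control, and Dlat rose by 0.74 ± 0.19 (limma adjusted p = 0.0311). Dld, encoding the dihydrolipoamide dehydrogenase shared with the 2-oxoglutarate complex, had 175, 169, 113, 104 and 141 FPKM in controls and 235, 207, 217, 228 and 241 FPKM with QpE. Its QpE cultures lay close together above all controls, and it rose by 0.71 ± 0.15 (limma adjusted p = 0.0183).

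The other genes of pyruvate entry missed the threshold. Mpc1 had 99.05, 87.5, 58.02, 50.6 and 93.6 FPKM in controls and 132, 136, 109.8, 100.4 and 118 FPKM with QpE. Its groups did not overlap, though QpE replicate 4 was just above control replicate 1 (difference 0.65 ± 0.19, limma adjusted p = 0.0534). Mpc2 had 159.7, 230.0, 132, 89.7 and 192 FPKM in controls and 305, 178, 214, 152 and 196 FPKM with QpE, and these overlapped widely (difference 0.41 ± 0.26, limma adjusted p = 0.343). Pcx had 575, 543, 341, 281 and 482 FPKM in controls and 816, 841, 461, 408 and 849 FPKM with QpE. Replicates 3 and 4 were lowest in both arms, and those QpE cultures lay within the control range (difference 0.59 ± 0.28, limma adjusted p = 0.212). Pdhx, encoding the protein that anchors DLD to the complex, had a difference of 0.36 ± 0.23.

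In the cycle itself 3 of 12 genes rose. Idh3a, encoding the catalytic subunit of NAD-dependent isocitrate dehydrogenase, had 190.2, 165, 109, 90.1 and 141 FPKM in controls and 292, 270.3, 256, 228 and 331 FPKM with QpE. Every QpE culture exceeded every control, and at 1.02 ± 0.20 (limma adjusted p = 0.0155) it was the largest difference among the 31. Idh3b, a second subunit of that enzyme, had 178, 184, 149, 128 and 159 FPKM in controls and 236, 218, 281, 238 and 249 FPKM with QpE. Its groups did not overlap, and it rose by 0.62 ± 0.12 (limma adjusted p = 0.0152). Sucla2, encoding the ADP-forming beta subunit of succinyl-CoA ligase, had 68.7, 66.8, 49.02, 45.2 and 57.95 FPKM in controls and 81.5, 74.1, 75.7, 84.5 and 76.1 FPKM with QpE. The lowest QpE culture was above the highest control, and Sucla2 rose by 0.46 ± 0.12 (limma adjusted p = 0.0379).

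Among the cycle genes not called, Cs had 259, 267, 159, 141 and 233 FPKM in controls and 358, 314, 245, 230.4 and 336 FPKM with QpE. In both arms replicates 3 and 4 were lowest, and the groups overlapped (difference 0.51 ± 0.21, limma adjusted p = 0.146). Ogdh had 89.3, 93.8, 68.8, 59.9 and 88.5 FPKM in controls and 108, 100.2, 86.8, 83.5 and 103 FPKM with QpE, with the same cultures lowest (difference 0.28 ± 0.14, limma adjusted p = 0.229). Idh2, encoding the NADP-dependent mitochondrial enzyme, had 121, 126, 142, 139 and 131 FPKM in controls and 103, 119, 121, 126 and 112 FPKM with QpE. It was the only cycle gene with a difference below 0 (-0.18 ± 0.08, limma adjusted p = 0.197), and its groups overlapped. The differences of Idh3g, Dlst, Suclg1, Suclg2, Fh1 and Mdh2 ranged from 0.37 for Mdh2, malate dehydrogenase of the mitochondrion, to 0.58 for Suclg1, the alpha subunit of succinyl-CoA ligase.

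Of the 5 genes of shuttles and glutamate, 2 rose. Glud1, encoding the glutamate dehydrogenase that makes 2-oxoglutarate, had 91.7, 87.2, 76.4, 75.7 and 79.3 FPKM in controls and 145, 149.7, 132, 123 and 265 FPKM with QpE. QpE replicate 5 stood far above the rest, and the other QpE cultures also exceeded all controls. Glud1 rose by 0.93 ± 0.19 (limma adjusted p = 0.0166). Mdh1, the cytosolic malate dehydrogenase, had 222, 202, 131, 132 and 208 FPKM in controls and 297, 285, 256, 243 and 325 FPKM with QpE, with no overlap, and rose by 0.68 ± 0.17 (limma adjusted p = 0.0332). Got2, the mitochondrial aspartate aminotransferase, had 63.1, 66.6, 118, 101 and 71.8 FPKM in controls and 66.4, 62.2, 154, 132 and 60.8 FPKM with QpE. It was highest in replicates 3 and 4 of both arms, the opposite of most members, with a difference of 0.10 ± 0.30. Got1, the cytosolic form, was also highest there, with 34.4, 40.3, 56.4, 52.5 and 32.8 FPKM in controls and 43.1, 40.9, 92.01, 86.1 and 45.9 FPKM with QpE (difference 0.44 ± 0.27). Aco1, the cytosolic aconitase that also binds iron-responsive RNA elements, had a difference of 0.51 ± 0.22.

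**Figure D2:**
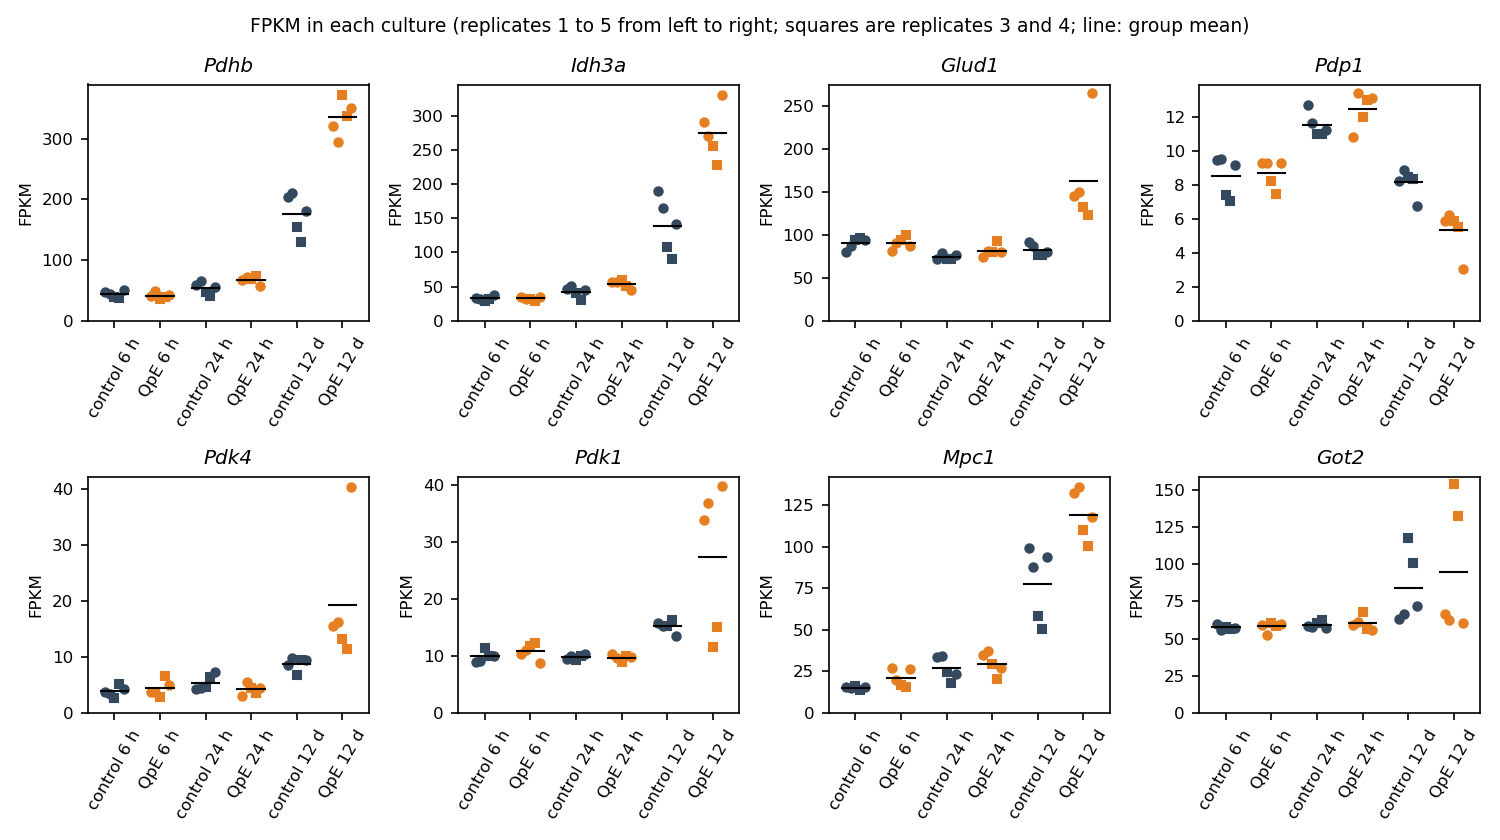
FPKM on the y axis of 8 members in each of the 30 cultures, by group on the x axis; each point is 1 culture, squares are replicates 3 and 4, and the line is the group mean of 5 cultures. Pdhb and Idh3a with QpE at 12 days lie above all controls, Pdp1 lies below them, and Pdk1 splits by replicate with QpE.

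Among the kinases and phosphatases that set the activity of the complex, 1 of 6 was called. Pdp1, encoding the calcium-sensitive phosphatase that activates the complex, had 8.24, 8.83, 8.47, 8.35 and 6.73 FPKM in controls and 5.85, 6.23, 5.87, 5.50 and 3.06 FPKM with QpE. Replicate 5 was lowest in each arm, the groups did not overlap, and Pdp1 fell by 0.56 ± 0.16 (limma adjusted p = 0.0492). Its call was just under the threshold and held in 2 of 10 fits that each left out 1 culture. Pdp2, the other phosphatase, had 3.11, 3.36, 2.37, 2.07 and 2.97 FPKM in controls and 4.77, 3.49, 2.83, 3.00 and 4.96 FPKM with QpE, with overlap (difference 0.34 ± 0.16). Pdp1 made up 74.5% ± 4.43 (SD, n = 5) of the summed phosphatase FPKM in controls and 57.9% ± 12.0 with QpE.

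Pdk4 had 8.54, 9.80, 6.80, 9.46 and 9.38 FPKM in controls and 15.5, 16.4, 13.2, 11.5 and 40.4 FPKM with QpE. Every QpE culture was above every control and replicate 5 far above the rest, but the difference of 0.92 ± 0.28 missed the threshold (limma adjusted p = 0.0609). Pdk1 had 15.8, 15.2, 15.3, 16.2 and 13.4 FPKM in controls and 33.8, 36.8, 11.5, 15.1 and 39.9 FPKM with QpE. With QpE replicates 1, 2 and 5 were above all controls, and replicates 3 and 4 were not. Over all 5 against 5 the Pdk1 difference was 0.66 ± 0.32 (limma adjusted p = 0.207). Within replicates 1, 2 and 5 it was 1.26 (limma adjusted p = 0.0203), and within replicates 3 and 4 it was -0.24 (limma adjusted p = 0.373). These sets of 3 against 3 and 2 against 2 cultures were picked from these same data. Their adjusted p-values are therefore no independent test of Pdk1, which was not called over all cultures. The difference between the sets was not tested. Pdk2, a kinase common in many tissues, had 20.03, 20.1, 12.8, 12.4 and 21.9 FPKM in controls and 25.4, 24.8, 25.1, 21.2 and 41.9 FPKM with QpE (difference 0.63 ± 0.21, limma adjusted p = 0.0780). Replicate 4 with QpE lay within the control range. Pdk3 had a difference of 0.03 with a 95% interval of -0.34 to 0.40. The 4 kinases summed to 57.6 ± 2.34 FPKM (SD, n = 5) in controls and 91.2 ± 27.4 FPKM with QpE, where the cultures ranged from 69.2 to 137 FPKM, all above the highest control at 60.4 FPKM.

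**Figure D3:**
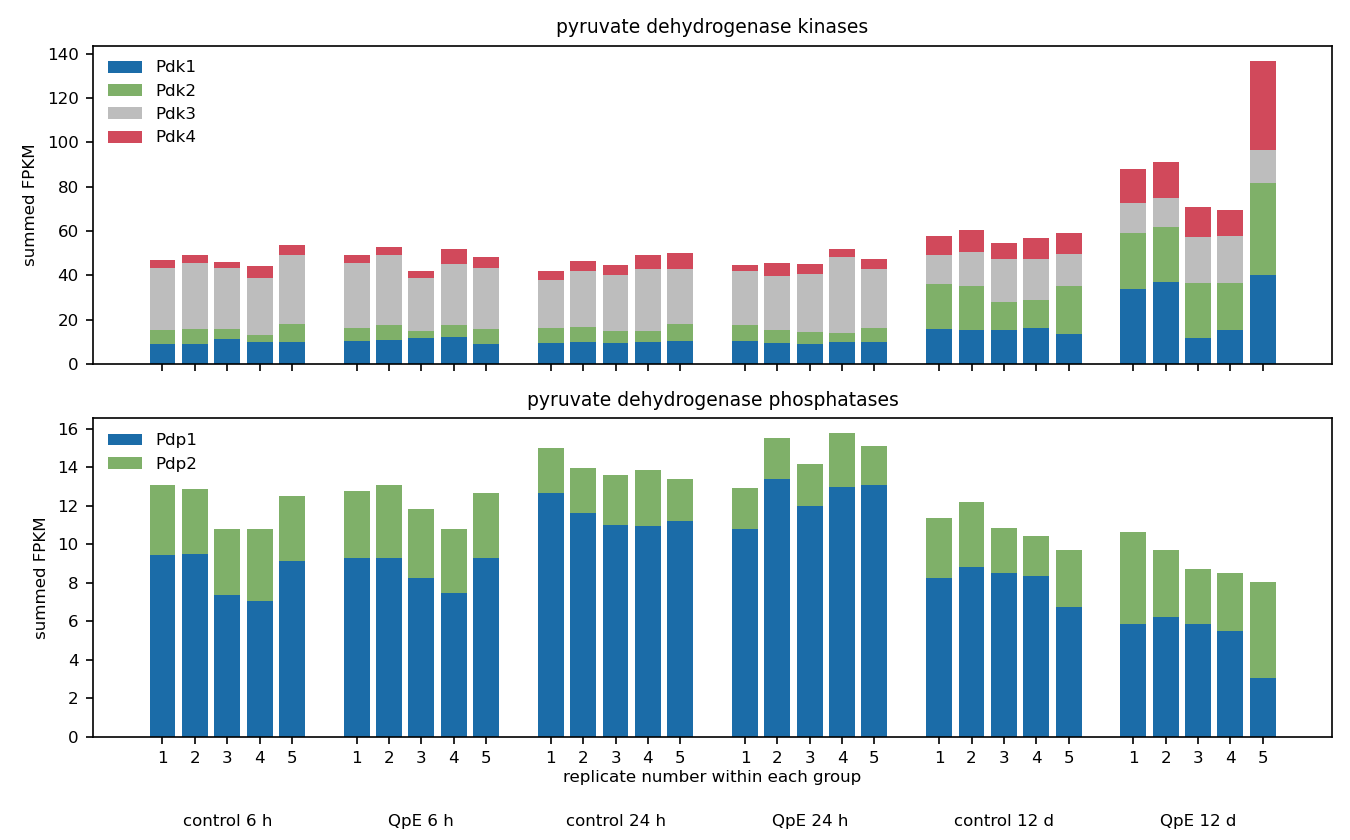
Stacked FPKM (y axis, from 0) of the 4 pyruvate dehydrogenase kinases (top) and the 2 phosphatases (bottom) in each of 30 cultures, by group and replicate number (x axis). Pdk3 is the largest part of the kinase sum at 6 h and 24 h, at 49.8% or more in each culture, and the 5 QpE cultures at 12 days have the highest kinase sums, with replicate 5 at 137 FPKM.

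Same-numbered cultures at 12 days deviated together from their group means. Their correlation across genes was 0.157 to 0.381 for the 5 pairs, all over 0.1, so each QpE culture was also set against the control of its number. The labels give no such pairing, and only 3 of 5 controls correlated best with the QpE culture of their own number. Whether these correlations reflect more than the replicate sets that stood apart in both arms was not tested. The pair values here, and the block made from the replicate numbers, thus rest on these same data and not on the labels. The median difference of the 31 members was 0.38, 0.29, 0.69, 0.70 and 0.53 in pairs 1 to 5. Over all genes the median was -0.03, 0, 0.01, 0.02 and -0.03 in these pairs. From 26 to 29 members were above 0 in each pair, and the share of all genes above 0 was not computed by pair. With the replicate number as a block, 21 members were called higher and 1 lower (limma), beside 8.78% and 10.2% of all genes. That fit called all 10 genes of the unblocked fit and 12 more, which were Cs, Aco1, Idh3g, Ogdh, Dlst, Suclg1, Fh1, Pcx, Pdk2, Pdk4, Mpc1 and Got1. The blocked adjusted p was 0.0204 for Mpc1, 0.0204 for Cs, 0.0187 for Pcx, 0.0475 for Ogdh and 0.0425 for Pdk4 (limma). In single pairs Pdhb differed by 0.48 to 1.38, Idh3a by 0.61 to 1.33, Glud1 by 0.65 to 1.73 and Pdk4 by 0.26 to 2.00. Idh2 and Pdp1 were lower with QpE in all 5 pairs, and Pdk1, Got2, Mpc2, Suclg2 and Pdk3 had pairs on both sides of 0.

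Within replicates 3 and 4 alone, 19 members were called higher and 0 lower, with a median of 0.66, beside 4.22% and 4.14% of all genes. Within replicates 1, 2 and 5, only Pdk1 was called (1 higher, 0 lower) and the median was 0.41, beside 0.698% and 0.342% of all genes. Pdhb differed by 1.32 within replicates 3 and 4 and by 0.70 within replicates 1, 2 and 5 (limma adjusted p = 0.0343 and 0.0510), and Dld by 1.03 and 0.50 (limma adjusted p = 0.0326 and 0.0729). These sets were picked from the data of these same cultures, so calls and adjusted p-values within them are not independent tests. The fits held 2 cultures against 2 in replicates 3 and 4, and 3 against 3 in replicates 1, 2 and 5. Their counts of calls cannot be compared, and the differences between these sets were not tested. The calls of Idh3a, Idh3b, Dld, Pdhb and Glud1 held in each of 10 fits that left out 1 culture, and those of Pdha1 in 7, Dlat in 4, and Sucla2 and Mdh1 in 2 each. Leaving out control replicate 3, 4 or 5 left 5 members called higher each, and leaving out QpE replicate 1 or 2 left 6 each. The other omissions left 7 to 10. Over all genes 330 to 659 were called higher with 1 culture left out, beside 740 in the full fit.

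**Figure D4:**
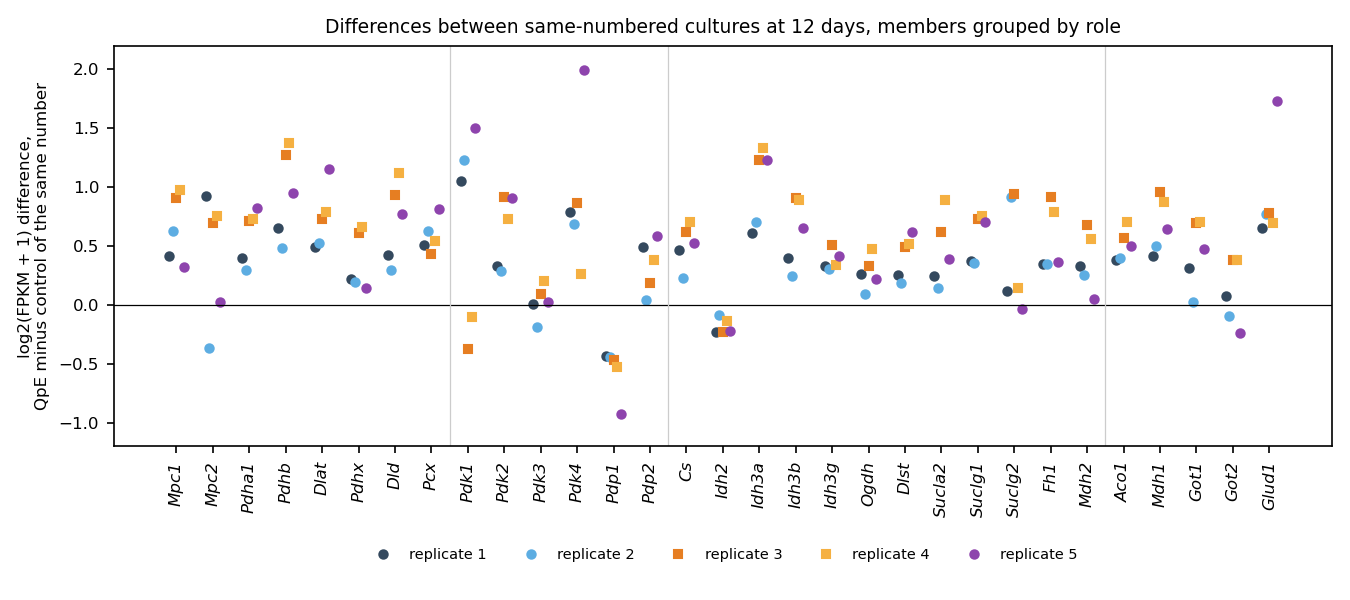
Difference in log2(FPKM + 1) between the QpE and the control culture of the same replicate number at 12 days (y axis) for each of the 31 members (x axis), 1 point per replicate number, squares for replicates 3 and 4. Most points lie above 0, Idh2 and Pdp1 lie below 0 in all 5 pairs, and Pdk1 has replicates 3 and 4 below 0.

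The make-up of enzymes with several forms is given as description, with no test. Among the subunits of NAD-dependent isocitrate dehydrogenase, Idh3a made up 35.3% ± 3.76 (SD, n = 5) of the summed FPKM in controls at 12 days and 43.2% ± 2.44 with QpE. Idh3g, the regulatory subunit, made up 23.1% ± 2.65 in controls and 18.1% ± 2.05 with QpE. Mdh1 made up 27.2% ± 1.58 of the malate dehydrogenase FPKM in controls and 31.6% ± 1.57 with QpE, and Got1 made up 34.2% ± 2.5 of the aspartate aminotransferase FPKM in controls and 39.8% ± 2.02 with QpE. The cultures of the 2 arms did not overlap in the Mdh1 share, which ran from 25.7% to 29.8% in controls and from 30.4% to 34.4% with QpE. Sucla2 had a share of 65.8% ± 5.89 of its pair with Suclg2 in controls and 66.3% ± 7.43 with QpE.

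The 12 day values were also set against 24 h by the difference between the QpE effects at these times, in 4 groups of 5. Of 31 members, 1 was called higher and 0 lower, beside 0.301% and 0.705% of all genes. The 1 was Idh3b, whose QpE effect was 0.58 ± 0.13 larger at 12 days than at 24 h (limma adjusted p = 0.0419). At 24 h Idh3b had 68.3, 70.97, 65.9, 61.8 and 62.9 FPKM in controls and 65.4, 68.7, 75.3, 66.4 and 63.1 FPKM with QpE, groups that overlapped, and the 12 day values are given above. The members' median was 0.38, with 28 of 31 above 0, beside a median of -0.02 over all genes. Among the genes given in every comparison, the difference of effects was 1.22 ± 0.35 for Pdk4 (limma adjusted p = 0.0748), 0.68 ± 0.34 for Pdk1 (0.311), 0.38 ± 0.15 for Pdha1 (0.190) and 0.50 ± 0.29 for Mpc1 (0.390). For Mpc2, Pcx, Cs and Ogdh it was 0.11 ± 0.35, 0.28 ± 0.32, 0.38 ± 0.22 and 0.10 ± 0.16. The Idh3b call held in 6 of 20 fits that left out 1 culture. For the other 30 members a difference between the 2 times was not shown.

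The control cultures alone give the course of the members without QpE. From 6 h to 24 h, 7 members rose and 3 fell (limma), beside 10.5% of all genes called higher and 12% lower. All 24 h controls were above all 6 h controls in 6 members, beside 7.96% of all genes. They were below them in 3 members, beside 10.3%. Mpc1 rose by 0.74 ± 0.15 (limma adjusted p = 0.00680), with 13.7 to 16.1 FPKM at 6 h and 18.2 to 33.99 FPKM at 24 h. The transcripts that carry most of Mpc1 were assembled without a gene name, and with named transcripts alone the difference was -1.26 (limma adjusted p = 0.321). Mpc2 rose by 0.59 ± 0.15 (limma adjusted p = 0.0193), with 37.2, 55.9, 51.1, 30.96 and 41.3 FPKM at 6 h and the 24 h values given above, and its groups overlapped. The other members that rose were Mdh1 by 0.45 ± 0.05, Idh2 by 0.43 ± 0.05, Pdp1 by 0.40 ± 0.09, Idh3b by 0.31 ± 0.05 and Cs by 0.17 ± 0.05 (limma adjusted p from 4.41e-04 to 0.0255). Idh2 had 106, 98.4, 94.8, 91.04 and 98.8 FPKM at 6 h and 136, 137, 128, 129.8 and 128 FPKM at 24 h, without overlap.

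The 3 that fell were Dlst, Pdp2 and Glud1. With the most abundant transcript only, 2 members were called lower, beside 824 of 14263 genes. With named transcripts only, 2 were called lower, beside 1225 of 18035 genes. Transcripts assembled without a gene name held 40.0% of Dlst FPKM. Dlst, the succinyltransferase core of the 2-oxoglutarate complex, had 78.5, 81.3, 96.99, 96.6 and 78 FPKM at 6 h and 64.5, 68.7, 60.3, 59.6 and 65.2 FPKM at 24 h. Its groups did not overlap, and it fell by 0.43 ± 0.08 (limma adjusted p = 0.00355). Glud1 had 80.02, 86.7, 93.6, 96.01 and 93.6 FPKM and 71.8, 78.5, 71.8, 71.8 and 76.1 FPKM at these times, without overlap, and fell by 0.28 ± 0.06 (limma adjusted p = 0.00719). Pdp2 had 3.36 to 3.75 FPKM and 2.16 to 2.87 FPKM and fell by 0.39 ± 0.08 (limma adjusted p = 0.00734). Over the members the median was 0.08, beside 0.00 over all genes. Pdk4 (0.39 ± 0.17), Pdk1 (0.00), Pdha1 (-0.02), Pcx (0.16 ± 0.11) and Ogdh (0.08 ± 0.06) were not called.

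From 24 h to 12 days in controls, 24 members rose and 2 fell (limma), beside 13.1% of all genes called higher and 20.9% lower. The members' median was 0.93, beside -0.08 over all genes. All 12 day controls were above all 24 h controls in 24 members, beside 9.96% of all genes. They were below them in 2 members, beside 16.7%. All 8 genes of pyruvate entry rose, as did 10 of 12 cycle genes. Pcx rose by 2.01 ± 0.21 (limma adjusted p = 8.08e-05), with 81.2 to 124 FPKM at 24 h and 281 to 575 FPKM at 12 days, and was the largest difference among the members. Pdhb rose by 1.70 ± 0.16, with 58.4, 66.2, 46.8, 40.9 and 54.96 FPKM at 24 h and 129 to 211 FPKM at 12 days (limma adjusted p = 5.18e-05). Idh3a rose by 1.66 ± 0.20, with 45.9, 50.4, 39.95, 30.8 and 44.2 FPKM at 24 h and 90.1 to 190.2 FPKM at 12 days (limma adjusted p = 2.26e-04). In each of these 3 genes every 12 day control was above every 24 h control, and control replicates 3 and 4 were the lowest at 12 days. Mpc1 rose by 1.49 ± 0.23, Pdk2 by 1.35 ± 0.18, Cs by 1.34 ± 0.17, Ogdh by 1.30 ± 0.12 and Mdh2 by 1.29 ± 0.15 (limma adjusted p from 4.41e-05 to 7.65e-04). Cs had 76.3 to 82.9 FPKM at 24 h and 141 to 267 FPKM at 12 days, and Ogdh had 29.8 to 34.2 and 59.9 to 93.8 FPKM. Mdh2 had 162 to 213 FPKM at 24 h and 365 to 600.3 FPKM at 12 days, the highest level of any cycle gene. Mpc1 stood at -0.93 (limma adjusted p = 0.717) when only its most abundant transcript was counted.

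The remaining members that rose included Mpc2 by 1.23 ± 0.22, Pdha1 by 0.64 ± 0.11, Pdk4 by 0.63 ± 0.15 and Pdk1 by 0.58 ± 0.06 (limma adjusted p = 0.00183, 0.00151, 0.00923 and 1.19e-04), and 12 more members that rose by 0.58 or more were Got1, Mdh1, Idh3b, Dld, Idh3g, Aco1, Dlat, Pdhx, Fh1, Suclg1, Sucla2 and Dlst. Pdk3 fell by 0.61 ± 0.11 (limma adjusted p = 0.00184), with 21.8, 25.2, 25.4, 27.98 and 24.9 FPKM at 24 h and 13.2, 15.3, 19.4, 18.5 and 14.4 FPKM at 12 days, without overlap. Its share of the summed kinase FPKM was 59.4% ± 0.839 (SD, n = 5) in controls at 6 h, 54.0% ± 3.14 at 24 h, 28.2% ± 5.66 at 12 days and 20.2% ± 9.33 with QpE at 12 days. Pdp1 fell by 0.46 ± 0.08 (limma adjusted p = 0.00153), with 12.7, 11.6, 11, 10.95 and 11.2 FPKM at 24 h and the 12 day values given above, without overlap. Idh2, Glud1, Got2, Suclg2 and Pdp2 were not called, with differences from 0.00 for Idh2 to 0.46 for Got2. Glud1 had 71.8 to 78.5 FPKM in controls at 24 h and 75.7 to 91.7 FPKM at 12 days, and 123 to 265 FPKM with QpE at 12 days. The comparisons with the 12 day controls share those 5 cultures.

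**Figure D5:**
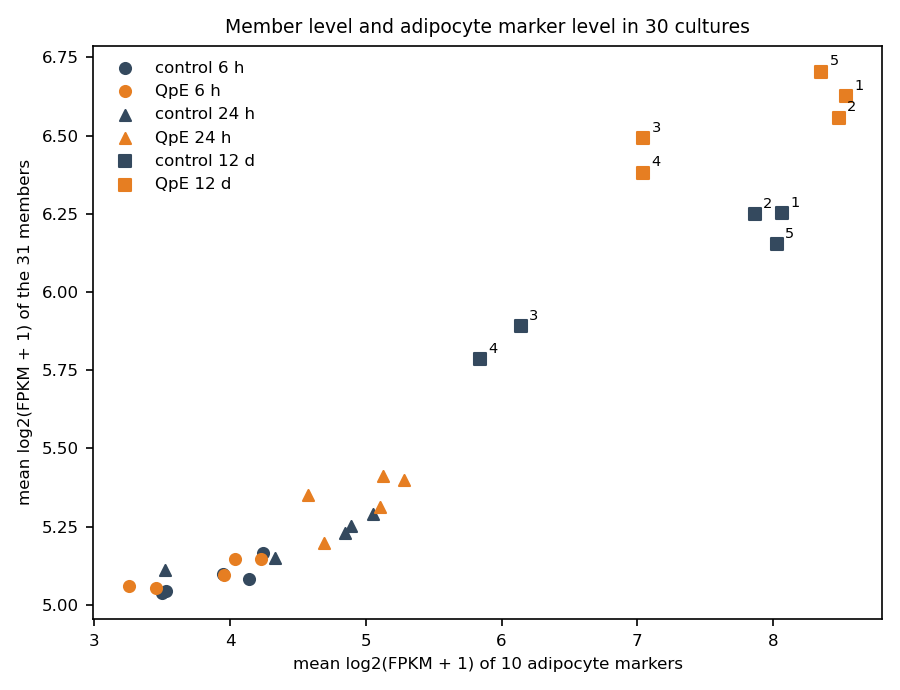
Mean log2(FPKM + 1) of the 31 members (y axis) against that of 10 adipocyte markers (x axis) in each of the 30 cultures; shape gives the time, colour the treatment, and numbers the replicates at 12 days. At 12 days replicates 3 and 4 are lower on both axes than replicates 1, 2 and 5 in each arm.

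Across cultures the mean log2(FPKM + 1) of the 31 members was highest with QpE at 12 days. The lowest culture, at 5.04, was control replicate 4 at 6 h. The 6 h and 24 h cultures overlapped, with 5.16 in control replicate 5 at 6 h and 5.11 in control replicate 4 at 24 h. In controls at 12 days it was 6.25, 6.25, 5.89, 5.79 and 6.15 in replicates 1 to 5, beside adipocyte marker means of 8.06, 7.86, 6.14, 5.84 and 8.03. With QpE it was 6.63, 6.56, 6.49, 6.38 and 6.70, beside adipocyte marker means of 8.54, 8.49, 7.04, 7.04 and 8.36. Replicates 3 and 4 with QpE were thus above all 5 controls in the members' mean while their adipocyte marker mean was below that of control replicates 1, 2 and 5. The fibroblast marker mean was 8.21, 8.66, 8.83, 8.76 and 8.33 in the controls and 7.18, 7.57, 7.36, 7.99 and 5.53 with QpE. Whether the markers account for the members' differences was not tested.

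The other genes of the pathway, a list of 26 with 25 tested (Me3 was not), gave 9 higher and 0 lower with QpE at 12 days, beside 5.06% and 7.16% of all genes. They included Sdha, Sdhb, Sdhc and Sdhd, which encode all 4 subunits of succinate dehydrogenase, and the median of the 25 was 0.34. The largest of the called differences was 0.93 ± 0.25 for the citrate carrier Slc25a1 (limma adjusted p = 0.0375) and the smallest 0.30 ± 0.08 for Sdhb (limma adjusted p = 0.0418). At 6 h and at 24 h 0 of the 25 were called. Controls gave 11 higher and 3 lower from 6 h to 24 h, beside 10.5% and 12% of all genes, and 15 higher and 2 lower from 24 h to 12 days, beside 13.1% and 20.9% of all genes.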

How the data were processed

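The authors deposited 1 table of FPKM values per transcript for all 30 libraries. In 10 of its columns the deposited FPKM held 11 values just below 0, so these columns were recorded as a score, and those values were set to 0. The submitters' processing notes list HISAT, HISAT2, StringTie and GRCm38, and settings or use of strand are not stated there. Per the labels' protocols, RNA had an integrity number of 10, and 100 ng went into a directional poly(A) kit with 13 PCR cycles, and paired reads of 75 bp were made. FPKM are not counts. In low single-exon transcripts, 58.7% to 65.6% of values per library came to a whole number of covered bases within 0.1 bases, so whole reads could not be recovered, no count model was used, and depth is approximate.

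Transcripts were summed per gene, keyed by symbol. Unnamed assembled transcripts (16259 of 150146) were joined to the only named gene of their locus, which placed 10567. They hold 66.1% of Mpc1, 58.3% of Idh3g and 40.0% of Dlst FPKM and at most 12.0% of any other member. Reads of near-identical pseudogenes or overlapping antisense transcripts cannot be told apart in these values. Genes with at least 1 FPKM in at least 5 libraries were tested as log2(FPKM + 1) with limma 3.58.1 (R 4.3.3, mean-variance trend), two-sided, adjusted over all 14616 genes by Benjamini-Hochberg with a threshold of 0.05. Each comparison was fitted on its own groups without a replicate block. Errors are SE of differences and SD of levels, n = 5.

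The members, lists and alternatives were chosen with earlier results of these data known. The text names all called members, the 8 with the largest differences in most detail, and always Pdk4, Pdk1, Mpc1, Mpc2, Pdha1, Pcx, Cs and Ogdh. Same-numbered cultures correlated at 0.157 or more at 12 days and as low as 0.0438 at 6 h and 0.0380 at 24 h, so by the rule that every pair must exceed 0.1 the numbers pair the 12 day cultures only. This rests on the data, not on the labels, and only 3 of 5 controls correlated best with their own number. In tests on simulated data for QpE against control at 12 days, with 200 of 14616 genes changed over 10 runs, the fit recovered 56.5% of 1.5-fold, 99.1% of 2-fold and 100% of 4-fold changes, and 3.43% of its calls were false. The simulated cultures varied independently, with a spread smoothed over genes of like level in each group. They held no sets of replicates and no genes of unusual spread, so these rates need not hold for the real cultures. Promoter sequences are RefSeq's, read on GRCm38.p6. Alternatives were other scalings, filters, a pseudocount of 0.1, transcript choices, all 30 libraries in 1 fit, the block and left-out cultures.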

Additional observations from a re-analysis of the deposited data

Results flagged for a closer look

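Of 186 groups of 5 cultures, 1 per member and condition, 10 held a culture whose gap to the nearest other exceeded 0.71 of the group's range, a test that chance passes in about 1 in 20 groups. At 12 days with QpE, 4 of these were replicate 5, which was high in Pdk4 at 40.4 FPKM (others 11.5 to 16.4), high in Pdk2 at 41.9 FPKM (others 21.2 to 25.4), high in Glud1 at 265 FPKM (others 123 to 150) and low in Pdp1 at 3.06 FPKM (others 5.50 to 6.23). Without that culture the limma fit at 12 days called 7 members higher and 1 lower, beside 515 and 859 of all 14616 genes. Control replicate 5 at 12 days was low in Pdp1 at 6.73 FPKM (others 8.24 to 8.83).

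At 24 h with QpE, replicate 3 was high in Dlat at 26.1 FPKM (others 22.7 to 23.1), and replicate 4 was high in Pdk3 at 34.0 FPKM (others 24.4 to 26.4) and in Pdp2 at 2.77 FPKM (others 2.03 to 2.22). Control replicate 5 at 24 h was high in Sucla2 at 36.9 FPKM (others 34.4 to 35.0). At 6 h with QpE, replicate 2 was low in Got2 at 52.7 FPKM (others 58.4 to 60.5). The QpE effect on Idh3b differed between times, by 0.58 on the log2 scale more at 12 days than at 24 h (limma adjusted p = 0.0419, 5 cultures in each of 4 groups).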

How the results depend on the processing

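No alternative called a member with QpE at 6 h or 24 h, and the members' counts from 24 h to 12 days in controls were 24 to 26 higher and 2 lower when 1 culture was left out, 19 higher with the most abundant transcript only and 20 with named transcripts only. With these 2 transcript choices 1072 and 1462 genes in all were called higher, beside 1917 in the main fit. At 12 days QpE gave 9 members higher and 1 lower. The count higher was 6 with TPM scaling, 5 with no filter on low values, 5 with the most abundant transcript only, 5 with named transcripts only, 4 with quantile normalization, 23 with all 30 libraries, 1 in replicates 1, 2 and 5, 19 in replicates 3 and 4, and 5 to 10 with 1 culture left out. The count lower was 2 with TPM scaling and with all 30 libraries, 0 to 1 with 1 culture left out, and 0 with a pseudocount of 0.1, no filter, median-ratio scaling, either transcript choice and either replicate set. With the replicate block at 12 days, 21 were higher and 1 lower. From 6 h to 24 h in controls the count higher was 4 with the most abundant transcript only and 5 with named transcripts only. It was 5 with all 30 libraries and 6 to 9 with 1 culture left out. The count lower was 2 with either transcript choice and with all 30 libraries, and 3 with 1 culture left out. Over all genes 1529 were called higher and 1759 lower there in the main fit. They were 692 and 824 of 14263 with the most abundant transcript only and 1013 and 1225 of 18035 with named transcripts only. With all 30 libraries they were 1070 and 1310. With 1 culture left out 1155 to 1676 were higher. For the difference of effects between 12 days and 24 h, 1 higher and 0 lower became 0 higher with no filter, TPM scaling, quantile normalization or either transcript choice, 5 higher and 1 lower with all 30 libraries, 2 higher with the replicate block, and 0 to 4 higher and 0 to 1 lower with 1 culture left out. The point estimate of Mpc1 in controls changed sign. It was -1.26 from 6 h to 24 h with named transcripts only and -0.93 from 24 h to 12 days with its most abundant transcript only. Mpc1 was not called in either of these fits. The named transcripts leave out the 66.1% of Mpc1 FPKM that was in joined ones. The most abundant Mpc1 transcript, with 62.0% of its FPKM, was itself a joined one. The causes of these sign changes and of the other shifts were not tested. For the difference of effects, 44 higher and 103 lower over all genes became 271 and 478 with all 30 libraries. They became 70 and 177 with the block, 29 and 88 with TPM scaling, and 25 and 45 with quantile normalization. They were 6 and 8 with no filter, 1 and 4 with the most abundant transcript only, and 2 and 3 with named transcripts only. Over all genes at 12 days, 740 higher and 1047 lower became 460 and 1370 with TPM scaling and 887 and 1012 with median-ratio scaling. They became 635 and 934 with quantile normalization, 1742 and 2080 with all 30 libraries, and 1283 and 1498 with the block. They were 102 and 50 within replicates 1, 2 and 5, and 617 and 605 within replicates 3 and 4. With no filter they were 341 and 472 of 36008 genes, and with the most abundant transcript only 223 and 282 of 14263. With named transcripts only they were 384 and 493 of 18035. With 1 culture left out 330 to 659 were higher. From 24 h to 12 days in controls 1917 and 3057 became 2363 and 2272 with median-ratio scaling. Depth is approximate and limits the low genes most: Pdp2 and Pdk4 were below 10 FPKM in every early culture.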
